A study of Mus musculus with 6 samples.

Results

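Isl1, Fgf8, Fgf10 and Wnt2 were followed in whole hearts of mouse embryos at E11.5, in a line with reduced (hypomorphic) expression of Nkx2-5, the homeobox gene required for heart formation. The genes were chosen by symbol, with earlier results of these data known. All 4 were found among the 1577 genes of the deposited table, of which 1492 are protein-coding. RNA from 3 control and 3 hypomorphic littermate hearts, all labelled C57BL/6, was sequenced, and the labels name the controls WT. The study's methods cite genotyping for both Nkx2-5-gfp and Nkx2-5-IRES-Cre mice, and the combination of alleles carried by the sequenced hearts is not given in the sources used here. A whole heart holds muscle, endocardium, epicardium, valve and outflow cells, blood and nerve, so that a change in the number of cells of a type and a change in RNA per cell cannot be told apart.

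The second heart field is a population of progenitors in the pharyngeal mesoderm that is added to the growing heart at its outflow and inflow poles. Isl1, a LIM homeodomain transcription factor, marks these progenitors and is also expressed in pacemaker precursors and in motor, sensory and autonomic neurons. Fgf8 and Fgf10 are secreted fibroblast growth factors (FGFs) of the anterior second heart field and pharyngeal arches, which bind FGF receptors on target cells. Wnt2 is a secreted Wnt ligand of the posterior second heart field, the inflow region and the neighbouring lung mesenchyme, which signals through Frizzled receptors and beta-catenin. As progenitors differentiate into muscle, NKX2-5 rises and much of the progenitor programme is turned off.

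Genes are in the deposited table (called listed) only where they passed the authors' AC test, a comparison of read counts between conditions, and differed by 1.5-fold or more. Each has 1 value per group, and individual hearts have none. How far hearts of a group differed, how deeply each was sequenced and what genes outside the table did are therefore unknown here. No test between the groups could be run, and all the differences given here are descriptions. Raw values are the authors' estimated reads per gene for a group, and normalized values are log2 values set against a baseline of each gene. The normalized difference exceeded the log2 ratio of raw reads by a median of 0.47 over the protein-coding genes (quartiles 0.44 and 0.50), so that normalization favoured the hypomorphic hearts by a median factor of 1.38. Nkx2-5 was not among the genes listed here, and the labels could not be checked against it. Nppa and Myl7, genes of atrial muscle, were the 6th and 7th most abundant protein-coding genes listed in control hearts, as the tissue label implies.

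The promoters of the genes are shown first, as the stretch of DNA through which each one's RNA is started. Sequences of 250 bases directly upstream of the annotated start were available from RefSeq (build GRCm38.p6) for 3 of the 4 genes, with Fgf8 not among them. They were searched on both strands for the NKX2-5 motif TNAAGTG and its core AAGTG, which lies within it, for the MEIS motif TGACAG, and for TAAT, the core that many homeodomain proteins bind. Capitals mark a match.
Isl1, chr13:116309689-116309938, minus strand: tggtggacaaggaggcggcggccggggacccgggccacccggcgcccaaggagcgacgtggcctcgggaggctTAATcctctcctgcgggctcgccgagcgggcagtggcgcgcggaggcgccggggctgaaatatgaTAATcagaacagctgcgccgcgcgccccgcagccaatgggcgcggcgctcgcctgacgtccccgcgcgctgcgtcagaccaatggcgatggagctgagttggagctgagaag
Fgf10, chr13:118714449-118714698, plus strand: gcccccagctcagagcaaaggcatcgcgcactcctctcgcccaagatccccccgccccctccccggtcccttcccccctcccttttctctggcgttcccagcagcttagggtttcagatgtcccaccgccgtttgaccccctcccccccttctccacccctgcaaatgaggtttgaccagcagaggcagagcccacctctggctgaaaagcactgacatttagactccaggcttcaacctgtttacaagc
Wnt2, chr6:18030446-18030695, minus strand: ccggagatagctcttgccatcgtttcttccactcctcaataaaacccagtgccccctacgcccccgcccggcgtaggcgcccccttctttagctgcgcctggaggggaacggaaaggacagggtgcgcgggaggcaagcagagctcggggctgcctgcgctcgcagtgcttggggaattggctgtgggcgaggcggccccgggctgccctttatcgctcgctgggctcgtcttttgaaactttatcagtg
The Isl1 window holds 2 TAAT matches, and none of the other letters searched occurs in it. The Fgf10 and Wnt2 windows hold no match to any of the 4. Over 32851 promoters of this length, 10.1% hold TNAAGTG, 40.7% hold AAGTG, 15.9% hold TGACAG and 54.9% hold TAAT. Distal enhancers were not examined.

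All 4 genes were higher in hypomorphic hearts by the normalized group values, against 42.0% of the protein-coding genes listed (627 of 1492). Since the 4 were chosen with earlier results of these data known, their common direction is a description and not evidence of a shared rise. Their log2 differences (hypomorphic minus control) were 1.14 for Isl1, 3.23 for Fgf8, 1.26 for Fgf10 and 0.90 for Wnt2, and the median of the genes listed as higher was 0.84. Fgf8 had the 5th largest difference among those 627 genes, and Fgf10, Isl1 and Wnt2 stood 121st, 154th and 271st. At least 2-fold higher were Isl1, Fgf8 and Fgf10, as were 14.6% of the genes listed. Without scaling, the ratio of raw reads reached 1.5-fold for Fgf8 and Fgf10 only, as it did for 11.1% of the genes listed, so that the size given for Isl1 and Wnt2 depends on the factor between the groups.

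Isl1, the transcription factor of the set, had an authors' group value of 514 raw reads in control hearts against 722 in hypomorphic hearts. On the normalized log2 scale these were -0.93 and 0.21. The raw ratio was 1.405, with a 95% exact interval of 1.32 to 1.5 that covers counting error only and takes each group value as the mean of 3 hearts. Counting error alone is thus small beside the difference in reads, as listing by a test of read counts already favours. The normalized fold of 2.20 is larger than the raw ratio allows for a gene at the median factor, which would give 1.94. In mm9 the gene lies on the minus strand of chromosome 13, from 117088478 to 117099896 (Entrez 16392).

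Fgf8, a ligand of the pharyngeal arches and anterior second heart field, was the least abundant of the 4 and differed most. Its group values were 10.7 raw reads in control (95% exact Poisson interval 7.30 to 15.1) and 63.4 in hypomorphic hearts (54.6 to 73.0), and -2.18 and 1.05 on the normalized log2 scale. The intervals do not overlap, which listing by a test of read counts already favours. The raw ratio of 5.94 carries a wide counting interval, from 4.07 to 8.93. The normalized values gave a fold of 9.37, against 8.22 for a gene with this raw ratio at the median factor. This fold, and the rank of 5th, rest on a control value of 10.7 raw reads. It is on the minus strand of chromosome 19, from 45811288 to 45817405 in mm9 (Entrez 14179).

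Fgf10, the other FGF ligand of the set and a known target of ISL1 and NKX2-5 in the second heart field, had 205 raw reads in controls and 355 in hypomorphic hearts. The normalized log2 values were -0.68 and 0.59. The raw ratio was 1.73, and the normalized fold was 2.40. The counting interval of the raw ratio, 1.57 to 1.91, was above 1.5 before any scaling, but covers counting error only. Scaled to the table total, the log2 difference of Fgf10 was 0.42, under 1.5-fold. The gene spans 119458598 to 119580922 on the plus strand of chromosome 13 (Entrez 14165).

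Wnt2, the most abundant of the 4, had 1380 raw reads in control hearts against 1909 in hypomorphic hearts, and -0.40 and 0.50 on the normalized log2 scale. Its raw ratio of 1.38 (counting interval 1.33 to 1.44) lies wholly under 1.5, and its normalized fold was 1.87. It added the most reads of the 4, 529 in hypomorphic over control hearts, against 208 for Isl1, 150 for Fgf10 and 52.7 for Fgf8. It lies on the minus strand of chromosome 6, from 17938940 to 17980585 (Entrez 22413).

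**Figure D1:**
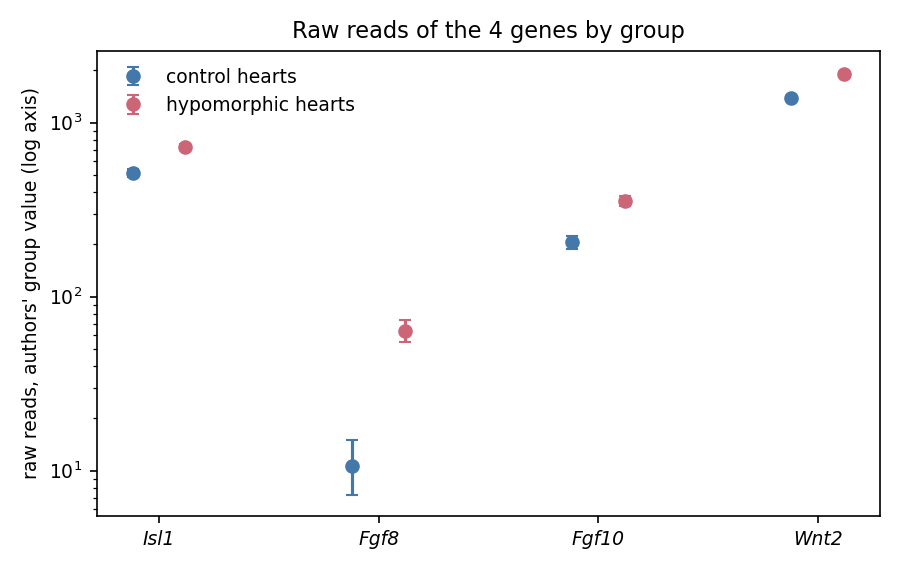
Raw reads of each gene (log axis) as the authors' group value in control and hypomorphic hearts, with bars for the 95% Poisson interval that covers counting error only. Every gene is higher in hypomorphic hearts, from 10.7 to 63.4 reads for Fgf8 and from 1380 to 1909 for Wnt2.

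Levels of different genes were compared per length, as raw reads per kilobase of annotated exons in the GENCODE M1 annotation of mm9. In control hearts the order was Wnt2 (612 reads per kilobase), Isl1 (204), Fgf10 (44.5) and Fgf8 (7.90). In hypomorphic hearts the same order held, at 847, 286, 77.1 and 47.0 reads per kilobase. Fgf8 lay closer to Fgf10 there than in control hearts. Whether neighbours in this order differ beyond the spread between hearts could not be seen.

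**Figure D2:**
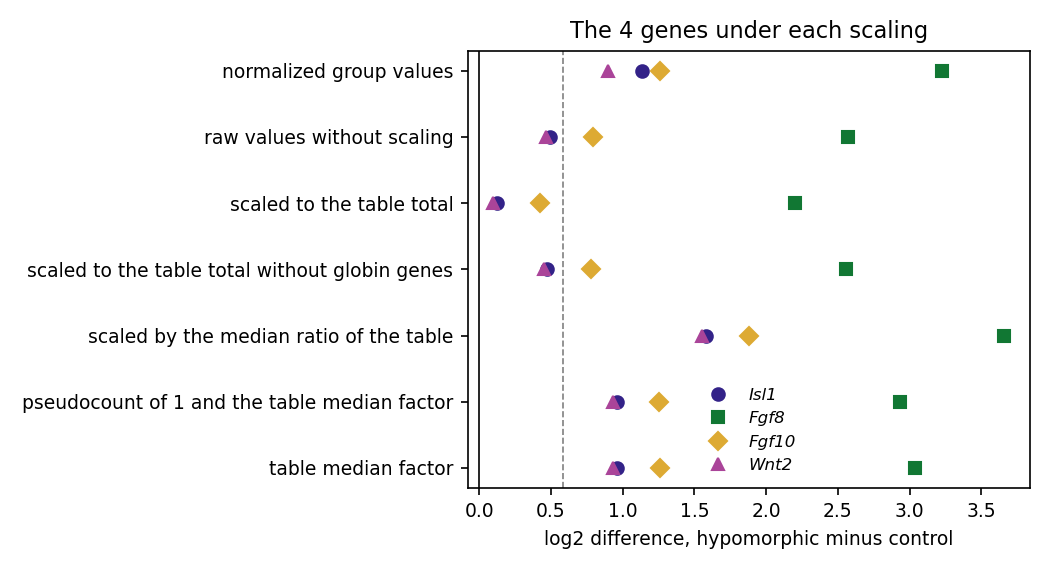
Log2 difference between hypomorphic and control hearts (x axis) for each gene under the normalized values and 6 other scalings of the raw values (y axis), with a solid line at 0 and a dashed line at 1.5-fold. All 4 genes stay above 0 under every scaling shown, and Fgf8 alone stays past 1.5-fold under all of them.

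The normalized and raw differences of a gene need not agree. The offset, the normalized log2 difference minus the log2 ratio of raw reads, was 0.47 for Fgf10 and 0.43 for Wnt2, close to the median. For Isl1 and Fgf8 it was 0.65 and 0.66, above the offsets of 95.7% and 96.2% of the protein-coding genes listed. Among genes listed as higher with reads within 2-fold of theirs, 88 of 94 had a lower offset than Isl1 and 128 of 137 a lower offset than Fgf8. If raw values are means of reads and normalized values are means of logs, which the sources do not state, a high offset would mean that reads were spread more unevenly over the control than over the hypomorphic hearts. The largest offset of all genes listed was 7.02, for Xist, a noncoding RNA of female cells. The sex of each heart was not among the labels used, and its part in the offsets was not tested. Of the second heart field list, Tbx1 and Foxf2 had offsets of 0.67 and 0.66, while Six2 and Foxf1a had 0.44 and 0.45, under the median. The 6 globin genes listed had offsets of 0.62 to 0.69.

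**Figure D3:**
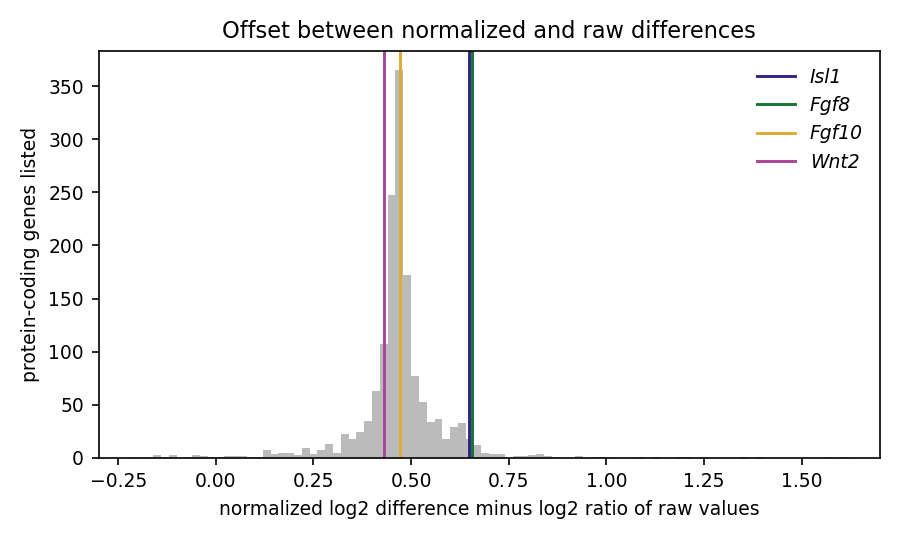
Number of protein-coding genes listed (y axis) by offset between normalized and raw log2 difference (x axis), with a line for each of the 4 genes. Fgf10 at 0.47 and Wnt2 at 0.43 lie within the main peak, and Isl1 at 0.65 and Fgf8 at 0.66 lie on its upper side.

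The place of the per-gene baseline also differed between these sets. The midpoint of the control and hypomorphic normalized log2 values was -0.36 for Isl1 and -0.57 for Fgf8, against a median of 0.17 over the genes listed as higher. Only 21 and 5 of those 627 genes had a lower midpoint. Midpoint and offset use the same normalized values. Of the 22 genes listed as higher with a midpoint at or below that of Isl1, 18 had an offset above the upper quartile (0.50). A low midpoint and a high offset are therefore not read as separate traits. Tbx1 (-0.62) and Six2 (-0.43) were also among the lowest, with 4 and 14 genes below them, while Foxf2 (-0.18) had 60 below it. Fgf10 and Wnt2 had midpoints of -0.046 and 0.048, while the globin genes lay at the other end, from 0.52 to 0.71. How the baseline was set is not given in the sources used here, so these values only show that the 4 genes do not share 1 pattern.

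The other genes of the pathways came from lists of 161 further symbols, of which 24 were listed, 11 higher and 13 lower. These lists were also chosen with earlier results of these data known. With the 4 genes added, 15 of the 28 were higher. Since no listed gene differs by less than 1.5-fold, the median log2 difference falls on the side with more genes. It was 0.66 with the 4 genes and -0.61 without them, and restates the counts. Without scaling, raw reads passed 1.5-fold for 3 of the 11 and for all 13 of the lower genes. At the median factor, a gene listed as lower passes 1.5-fold in raw reads by being listed. The count of 13 therefore adds nothing to the listing. Over all protein-coding genes listed, 42.0% were higher and 58.0% lower. The number of genes tested by the authors is not known here. Counts of symbols that were or were not listed therefore have no background share beside them, here and below.

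Of 24 transcription factor genes of the second heart field, 5 were listed, 4 of them higher. Beside Isl1 these were Tbx1, the T-box factor of pharyngeal mesoderm and endoderm, with 33.9 raw reads in controls and 46.4 in hypomorphic hearts (log2 difference 1.13), Foxf2, a forkhead factor of mesenchyme, with 10.9 and 17.0 (1.30), and Six2, a homeobox factor, with 58.5 and 65.4 (0.60). Foxf1a, a forkhead factor of splanchnic mesoderm, was lower, with 29.5 and 13.6 raw reads (-0.67). Of the higher ones, Foxf2 alone passed 1.5-fold in raw reads, at a ratio of 1.55. It also had the fewest reads of them, and no counting interval was computed for it. The other 19, Mef2c and Hand2 among them, were not among the genes listed.

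FGF ligands were listed in both directions. Of 22 members of the family, 8 were listed, 3 higher and 5 lower. The 3 higher ones passed 1.5-fold in raw reads as well. So did the 5 lower ones, which at the median factor follows from being listed. Fgf16, a ligand expressed in heart muscle, was higher beside Fgf8 and Fgf10, with 8.67 raw reads in control hearts against 28.6 in hypomorphic hearts (log2 difference 2.14). Its close relative Fgf9, a ligand of the epicardium and endocardium that acts on muscle, was lower, from 734 to 220 raw reads (-1.24). Fgf7, the close relative of Fgf10 with which it shares an epithelial receptor isoform, was lower as well, from 103 to 38.1 reads (-1.02). The same held for Fgf1, from 1795 to 665 (-0.96), and for Fgf14 (-0.94) and Fgf11 (-0.69), which stay inside the cell and bind sodium channels.

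Of 8 FGF receptor and co-receptor genes only Kl, the co-receptor Klotho, was listed, with 126 raw reads in controls and 188 in hypomorphic hearts (log2 difference 1.03, under 1.5-fold in raw reads). None of 16 targets and feedback genes of FGF signalling, such as Spry2, Dusp6, Etv4 and Etv5, was listed. Since unlisted genes have no values here, a change under the listing threshold would not be seen.

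Of 19 Wnt ligand genes, 3 were listed. Wnt2 was higher, whereas Wnt16 went from 164 to 73.0 raw reads (log2 difference -0.73) and Wnt6, a ligand expressed in epithelia, from 22.7 to 11.47 (-0.60). Against 42.0% of the protein-coding genes listed, all 3 receptor genes listed, of 18, were higher. They were the Frizzled receptors Fzd5, with 2001 and 2855 raw reads (1.02), and Fzd7, with 3723 and 4933 (0.86), and the R-spondin receptor Lgr6, with 142 and 292 (1.49), which alone passed 1.5-fold in raw reads.

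Among 22 secreted or membrane modulators of Wnt signalling, 4 were listed. Wif1 and Sfrp2, which bind Wnt ligands outside the cell, were lower, Wif1 from 130 to 28.5 raw reads (log2 difference -1.87) and Sfrp2 from 4274 to 1311 (-1.14). Sfrp5, a related protein expressed at the inflow pole, was higher (0.73), as was Rspo2, an enhancer of Wnt signalling (0.77), both under 1.5-fold in raw reads. Of 11 effectors and targets only Nkd2, an intracellular inhibitor, was listed, and it was lower, from 615 to 287 raw reads (-0.63). Axin2 and Lef1 were not among the genes listed.

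Of 25 other signals of the pharyngeal region, 3 were listed. Cyp26a1, which breaks down retinoic acid, was lower, from 33.1 to 10.3 raw reads (log2 difference -1.01), and Aldh1a1, which can make it, was higher, from 635 to 838 (0.86, under 1.5-fold in raw reads). Sema3c, a guidance factor of the outflow tract, was also lower, from 6772 to 2998 raw reads (-0.68).

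**Figure D4:**
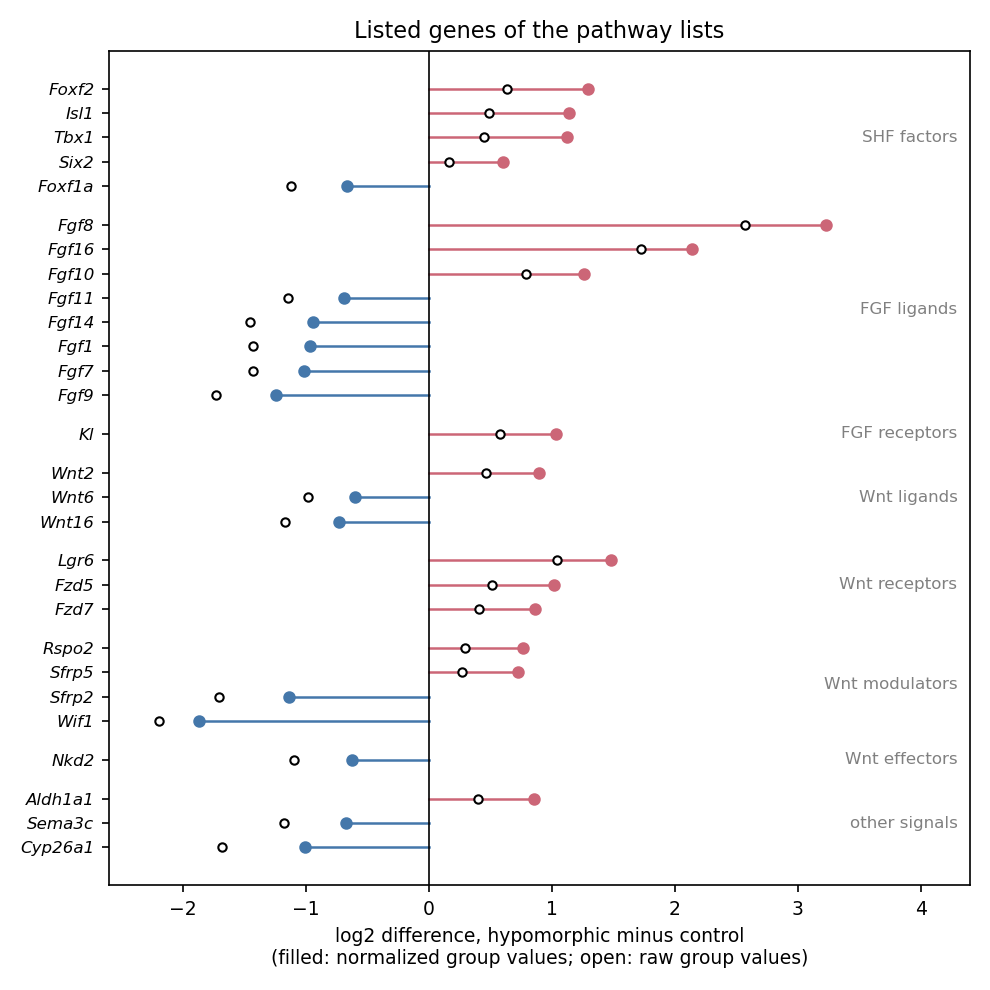
Log2 difference between hypomorphic and control hearts (x axis) for each listed gene of the pathway lists, grouped by role, with filled points for normalized and open points for raw group values. FGF ligands lie on both sides of 0, from 3.23 for Fgf8 to -1.24 for Fgf9. The 3 Wnt receptor genes listed all lie above it, with Lgr6 alone past 1.5-fold in raw values.

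Isl1 and Fgf10 both lie on chromosome 13, with start sites 2359 kb apart in mm9.

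Markers of cell types that can carry these genes were counted in the same table. Of 5 sinoatrial genes only Hcn4, a pacemaker channel gene, was listed, going from 7019 raw reads in the controls up to 12426 in the hypomorphic group (log2 difference 1.27). Of 18 neuronal genes 4 were listed, with Pou4f1 (1.36), Th (1.31) and Prph (1.05) higher and Elavl3 lower (-0.81). Their raw reads were few, from 8.0 to 94.7 in control and from 14.1 to 124.5 in hypomorphic hearts. Of 7 neural crest and glial genes, Sox10 (0.62) and Tcfap2a (0.71) were higher, both under 1.5-fold in raw reads. None of 16 pharyngeal and foregut epithelial genes or of 11 pancreatic endocrine genes was listed. Foxf1a was the listed gene among 6 of lung and foregut mesenchyme, and Msln among 8 of epicardium, lower from 408 to 81.0 raw reads (-1.87). Of 15 muscle genes Nppa was lower (-0.66) and Myl7 higher (0.63). The part of nerve, pacemaker or neural crest cells in the values of Isl1, Fgf8, Fgf10 and Wnt2 was not tested.

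The genes nearest to each of the 4 were sought over log2 raw reads in the 2 groups, as the distance between the pairs of values, so that nearness reflects level and ratio only. Fgf10 had the closest neighbour, Ano2, a chloride channel gene, with 209 and 375 raw reads (distance 0.083), followed by Arhgap36 (0.19) and Tmem184a (0.19). Nearest to Isl1 were Baiap2l2 (0.13), Rap1gap (0.14) and Ttc7 (0.16). Wnt2 lay nearest to Ephb2, an ephrin receptor gene (0.11), Olfr1274-ps (0.14) and Rpia (0.15). Fgf8 stood apart, its nearest gene being Ccdc135 with 13.3 and 40.3 raw reads (0.72), and Hs3st2 lay at 1.08.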

How the data were processed

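RNA from 3 control and 3 hypomorphic E11.5 hearts was made into TruSeq libraries, sequenced on a Genome Analyzer IIx, aligned by the authors to mm9 with TopHat, counted on RefSeq genes in Avadis NGS and tested with the AC test. CASAVA 1.4 is named in the submitters' processing notes. The deposited table holds the authors' raw estimated counts per group, not rounded, and the authors' normalized log2 values per group, whose method is not given in the sources used here. The authors' own fold change columns were not used. Counts per heart were planned for edgeR, and since only group values exist no test was run. Exact Poisson and Clopper-Pearson intervals (95%) used 3 times the group value, rounded, since it was whole within 0.02 for only 12.7% of control and 15.2% of hypomorphic values. Depth per heart is unknown. Differences are those of the normalized values, and scalings are given in the closing section. The calculation of the factor was tested on simulated data. Named genes were the 4 genes, all listed pathway genes, listed markers and the 3 nearest genes. A few genes are not reported here and were left out of the lists and their counts. Members and lists were chosen with earlier results of these data known. Positions are from GENCODE M1 (mm9), and promoters from RefSeq (GRCm38.p6). Older symbols were matched for Foxf1a and Tcfap2a. Calculations used scipy 1.17.1, pandas 2.3.3 and numpy 2.4.6 under Python 3.11.15, and figures matplotlib 3.10.9.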

Additional observations from a re-analysis of the deposited data

How the results depend on the processing

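Isl1, Fgf8, Fgf10 and Wnt2 kept their direction under all 6 other scalings, and the sizes moved with the factor between groups. The log2 differences of Isl1, Fgf8, Fgf10 and Wnt2 were 0.49, 2.57, 0.79 and 0.47 from raw values without scaling, and 0.12, 2.20, 0.42 and 0.10 with the table total. Leaving globin genes out of the total gave 0.48, 2.56, 0.78 and 0.45. With the median ratio of the table they were 1.58, 3.66, 1.88 and 1.56. That ratio centres a table in which 58.0% of the protein-coding genes are lower, and it added 1.09 to each gene. With a pseudocount of 1 and the table median factor Isl1 was 0.96, and it was 0.96 with that factor alone, a setting chosen after seeing the data. The other genes then moved by less than their counting interval. The table median factor was itself taken from the normalized values, so that settings with it stay near those values by construction. The number at least 1.5-fold higher was 4, and it was 2 without scaling, 1 with the table total and 2 when globin genes were left out of it. The table total is mostly globin reads (60.2% in control and 68.8% in hypomorphic hearts). Of the pathway genes, 15 were higher and 13 lower. The number higher was 9 with at least 100 raw reads, 9 at 2-fold or more and 5 in raw reads without scaling, and the number lower was 9 with at least 100 raw reads and 5 at 2-fold or more. No paired analysis was possible because individual hearts have no values in the table. DESeq2, no filter on low counts and leaving out a replicate were not run for this reason.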

Other observations

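Genes of the Nodal pathway, which patterns the left side of the early heart and acts in the anterior heart field, were looked up after values of the table had been seen. Of 11 symbols 5 were listed, all higher in hypomorphic hearts, as were 42.0% of the protein-coding genes listed. Tdgf1, a Nodal co-receptor, had 7.33 raw reads in control hearts against 30.0 in hypomorphic hearts (log2 difference 2.31), and its relative Cfc1 had 26.6 and 87.7 (2.25). Foxh1, the transcription factor through which Nodal acts, had 35.9 and 125 raw reads (2.16). Lefty2 and Lefty1, secreted Nodal inhibitors, had differences of 1.10 and 0.79, of which Lefty1 stayed under 1.5-fold in raw reads. The offsets of the 5 genes, 0.28 to 0.52, were lower than those of Isl1 and Fgf8. Nodal itself was not among the genes listed.

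The 22 genes listed as higher whose normalized midpoint was at or below that of Isl1 were read as a list, also after the values were seen. Beside Isl1, Fgf8, Tbx1 and Six2 they hold Dlx1 and Dlx2, homeobox genes of pharyngeal arch and forebrain (log2 differences 0.70 and 0.82). They also hold Pax6, a homeobox gene of eye, brain and pancreas, with 16.0 and 123 raw reads. The neuronal genes Prph, Stmn3 and Scg3 are there too, with 8.04 to 14.5 raw reads in control and 14.0 to 20.8 in hypomorphic hearts. Of these, only Prph was in the list of neuronal genes counted above. Genes listed as lower could not enter, such as the neuronal gene Elavl3, with 94.7 and 40.9 raw reads. Glp1r (2.33 and 409) lies there as well, as do Hoxd3 (136 and 85.1) and Rgs5 (5862 and 3853). Hoxd3 and Rgs5 were lower in raw reads but higher in normalized values. The rest of the list is Npw, Adcy8, Ppyr1, Slc5a11, Lrrc38, Ctsw, Rxfp3, Fam155a and Tecta. Whether the hearts held different amounts of tissue from around the heart was not tested.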
